A study of Mus musculus with 7 samples.

Results

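RNA carried by extracellular vesicles (EVs) was compared between macrophages that expressed a catalytically inactive form of the exoribonuclease Dis3l2 and macrophages that carried an empty vector. The pair was chosen by the sample labels alone: the library titled with Dis3l2 D389N against the library titled with Vector, 2 of the 7 libraries of the series. Both came from RAW264.7, an established mouse macrophage line, and both carried the hairpin against Dis3l2 (shDis3l2) and were kept in doxycycline at 1 µg/mL. The D389N change replaces a catalytic aspartate with asparagine. The genotype label of that sample writes the transgene as Dis3l2r D389N while its title writes Dis3l2 D389N, so whether it also resists the hairpin rests on 1 label. The labels name neither the promoter of the transgene nor whether each line was 1 clone or a pool. Vesicles were collected from medium over 24 h, banded in sucrose by density and exposed to 20 U of micrococcal nuclease for 30 min before extraction, and 50 ng of RNA entered a template-switching library. EVs of 3 other genotypes served as a frame for the pair: cells with a non-silencing hairpin (shNS), the parental knockdown cells (shDis3l2), and knockdown cells with an active, hairpin-resistant transgene (Dis3l2r). Each genotype had 1 library, so no difference below was checked on a replicate and none has a test.

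Dis3l2 degrades RNA from the 3′ end and prefers RNAs that carry an added tail of uridines. Its known substrates include aberrant or unprocessed transcripts of RNA polymerase III, the enzyme that makes tRNAs, the rodent 4.5S RNA and the RNAs of short interspersed repeats (SINEs). In the D389N protein a residue that holds a catalytic metal ion is changed. Vesicles of many cell types carry these short structured RNAs, whole or as fragments.

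Whole-RNA rows (tRNAs, spliced tRNAs, 4.5S RNA, SINEs and Ensembl transcripts, as opposed to the exon, intron and UTR pieces of the same table) held 20950528 counts in the D389N library and 25177105 in the Vector library, and between 13439403 and 23667937 in the other 3 EV libraries. None of the 3639 transcript rows could be paired with a gene symbol. Neither the level of Dis3l2 nor the macrophage markers could therefore be checked against the labels. Ratios are log2 of D389N over Vector after TMM scaling (trimmed mean of M values) with an exact 95% interval, which covers counting error only. An RNA was called higher or lower when it had at least 100 counts over both libraries, differed at least 2-fold and had an interval that excluded no difference. TMM sets every ratio 0.25 (log2) above scaling by library totals, and totals are given as a second scaling. Levels are CPM (counts scaled to a common library size, TMM over the 5 EV libraries), not divided by length, and are compared only between libraries. More vesicles with an RNA and more copies per vesicle cannot be told apart in these samples.

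The 2 largest RNA classes, tRNAs and transcripts, held similar shares of counts in both libraries, while the shares of 4.5S RNA and spliced tRNAs shifted. tRNA rows held 75.8% of whole-RNA counts with Vector and 74.1% with D389N. Transcript rows held 16.6% and 16.7%. The 4.5S RNA went from 6.26% with Vector to 8.30% with D389N, the highest share of the 5 EV libraries, of which the other 3 held between 4.78% and 6.69%. Spliced tRNAs went the other way, from 1.09% to 0.693%, close to the 0.708% of the Dis3l2r library and below the 1.22% of shNS and 1.04% of shDis3l2. SINE rows stood at 0.204% with Vector and 0.241% with D389N.

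**Figure D1:**
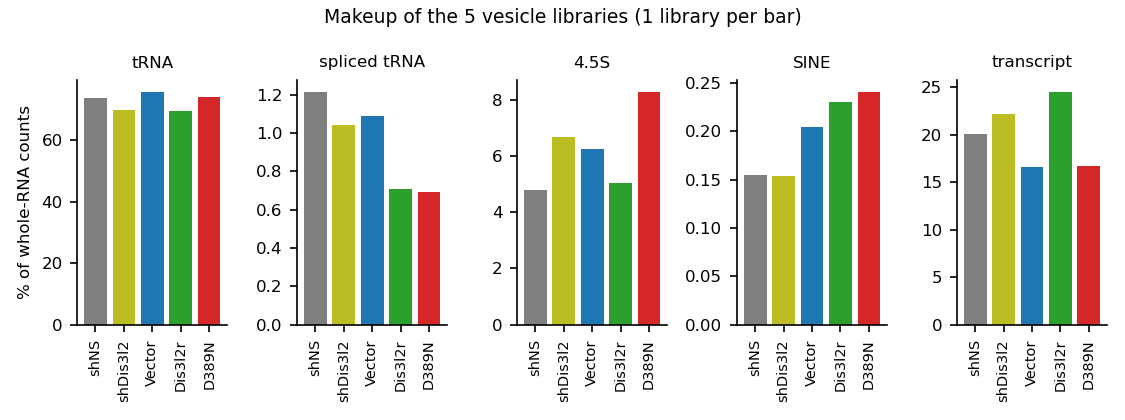
Share of whole-RNA counts (percent, y axis, a separate scale per panel starting at 0) for 5 RNA classes in the 5 EV libraries, 1 library per bar. The D389N bar is the highest for 4.5S RNA (8.30%) and the lowest for spliced tRNAs (0.693%).

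Between the pair, 17.2 percentage points of counts changed place. The most abundant RNA of these vesicles, tRNA-Gly-TCC-1-1, made up 17.4% of counts with Vector and 11.5% with D389N, the lowest of the 5 EV libraries, against 17.9% in shNS, 20.1% in shDis3l2 and 14.9% in Dis3l2r. Its share fell by 5.91 points, the largest shift of any row. In CPM Dis3l2r was lowest, at 131940 against 138974 in D389N, so the lowest place of D389N holds for shares only. tRNA-Lys-CTT-3-1 went from 5.53% to 3.50%. The gains were spread over more rows: 4.5S RNA gained 2.05 points, tRNA-Glu-CTC-1-1 went from 2.71% to 3.99%, and tRNA-Arg-CCG-3-1 from 3.29% to 4.56%. In ratios these abundant RNAs stayed within 2-fold, at -0.35 for tRNA-Gly-TCC-1-1, -0.41 for tRNA-Lys-CTT-3-1, 0.81 for tRNA-Glu-CTC-1-1 and 0.72 for tRNA-Arg-CCG-3-1.

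Of 379 whole RNAs measured, 41 were higher with D389N (10.8%) and 47 were lower (12.4%), which makes 23.2% called either way. Scaling by totals gave 26 higher (6.86%) and 69 lower (18.2%), or 25.1% either way. The median ratio over all measured RNAs was 0.08 with TMM and -0.17 with totals, so the balance of higher and lower calls follows the scaling. Across 9 scalings, 16 of the 41 higher calls and all 47 lower calls were made every time. The scalings shift all ratios by -0.42 to 0.006 relative to TMM, so they remove higher calls and hardly any lower ones. The 2 counts therefore do not show that falls were firmer than rises. Calls were more frequent among RNAs with few counts: 30.7% of 153 RNAs with at least 100 and under 1000 counts and 28.4% of 88 from there to 10000, against 11.7% of 77 from 10000 to 100000 and 11.5% of 61 above that. Of the 41 higher calls 27 had under 1000 counts. At 100000 counts or more 6 RNAs were higher and 1 was lower. The RNAs nearest the 2-fold limit were ENSMUST00000083370 at 1.00, ENSMUST00000174972 at 1.00 and tRNA-Val-CAC-2-1 at -1.01 inside it, and ENSMUST00000093716 at -0.999, tRNA-Trp-CCA-3-1 at -0.994 and ENSMUST00000082732 at 0.986 outside it.

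**Figure D2:**
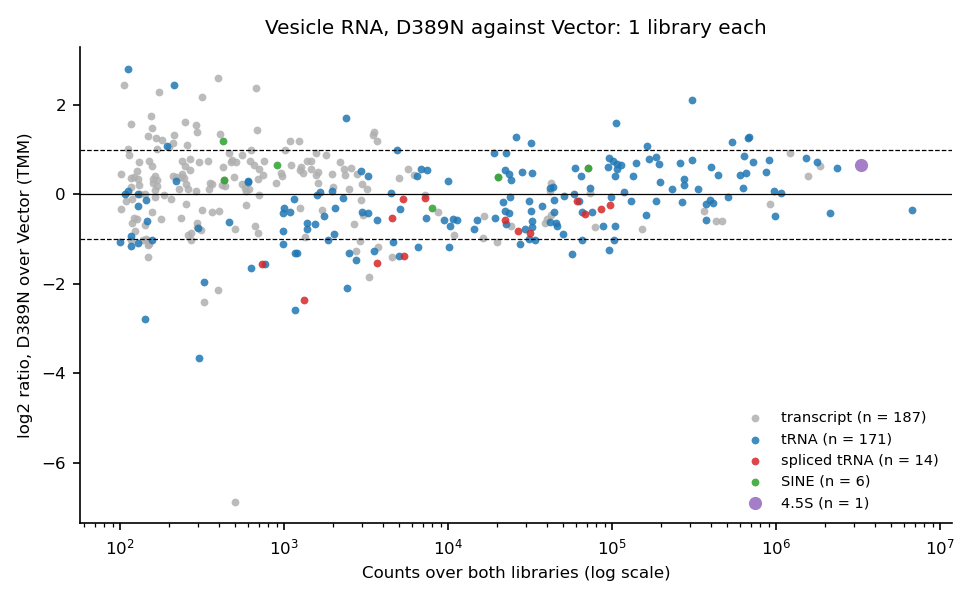
Log2 ratio of D389N over Vector after TMM scaling (y axis) against counts summed over both libraries (log scale, x axis), 1 point per whole RNA with at least 100 counts, coloured by class; dashed lines mark a 2-fold difference. Points past the lines are denser below 10000 counts, and all 14 spliced tRNAs lie below 0.

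tRNAs were the class with the most counts, and their rows went both ways. Of 171 measured tRNA rows 12 were higher (7.02%) and 28 lower (16.4%), with a median of -0.14, beside 0.08 for all RNAs; by totals 8 were higher and 37 lower. Rows of 1 anticodon can share reads, since many tRNA genes are near copies, so values of single rows are uncertain, and sums over an anticodon are given beside them. Of 49 measured anticodon families 4 were higher (8.16%) and 2 lower (4.08%). By totals 2 were higher, Ser-TGA and SeC-TCA, and 4 lower.

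The strongest rise of a measured family was serine TGA. Ser-TGA tRNAs, which read UCA codons, stood at 3440 CPM in shNS, 4770 in shDis3l2, 5242 in Vector, 5942 in Dis3l2r and 16255 in D389N. The D389N library was thus above the other 4, which ranged from 3440 to 5942 CPM. The ratio to Vector was 1.63 (1.62 to 1.64), and 1.37 by totals. Within the family tRNA-Ser-TGA-2-1 carried the difference: 2065, 2802, 3056 and 4310 CPM in shNS, shDis3l2, Vector and Dis3l2r, against 13334 in D389N, a ratio of 2.12 (2.11 to 2.13) that was called with all 9 scalings. tRNA-Ser-TGA-1-1 stood at 0.41 (0.39 to 0.43). Serine tRNAs as a group did not share the rise, since 10 of 13 rows lay below 0 (176 of 379 over all RNAs). By the rule 1 was higher and 2 were lower, tRNA-Ser-GCT-5-1 at -1.27 and tRNA-Ser-AGA-1-1 at -1.08. These are 7.69% and 15.4% of the rows, beside 10.8% and 12.4% of all RNAs.

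Selenocysteine tRNA, which inserts selenocysteine at recoded UGA stop codons and is charged with serine first, was also higher. Its single row, tRNA-SeC-TCA-1-1, had 13195 CPM in shNS, 9066 in shDis3l2, 10072 in Vector, 12086 in Dis3l2r and 24381 in D389N. Here too D389N stood above the other 4 libraries, which ranged from 9066 to 13195 CPM. The ratio was 1.27 (1.26 to 1.28), 1.02 by totals and 0.85 at the lowest of the 9 scalings. The cysteine family Cys-GCA showed nearly the same picture, with 13438, 10095, 13768 and 17241 CPM in shNS, shDis3l2, Vector and Dis3l2r and 30561 in D389N. Its ratio was 1.14 (1.14 to 1.15), and 0.89 by totals, under the 2-fold limit. tRNA-Cys-GCA-3-1 held 82.0% of the family's D389N counts and stood at 1.29 (1.29 to 1.30), while the far less abundant tRNA-Cys-GCA-17-1 was lower, at -1.56 (-1.83 to -1.29).

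Of 17 measured leucine rows 14 lay above 0 (203 of 379 over all RNAs), 3 were higher and 1 was lower, beside 10.8% and 12.4% of all RNAs. All 3 higher rows read the CUG codon, and by totals 1 of them kept its call. Leu-CAG as a family had 10289 CPM in shNS, 7590 in shDis3l2, 9376 in Vector, 9707 in Dis3l2r and 20732 in D389N. It stood at 1.14 (1.13 to 1.15), and at 0.88 by totals. tRNA-Leu-CAG-2-1, with 91.4% of the family's D389N counts, stood at 1.17 (1.16 to 1.18) and tRNA-Leu-CAG-4-1 at 1.16 (1.13 to 1.19). By totals they stood at 0.91 and 0.90, under the limit. tRNA-Leu-CAG-3-1 had the largest ratio of the tRNA rows with at least 100 counts, 2.81 (2.09 to 3.61), from 19 counts with Vector and 93 with D389N. The lower leucine row was tRNA-Leu-CAA-1-1 at -1.01 (-1.17 to -0.86).

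Other tRNA rises were single rows. tRNA-Gly-GCC-3-1, a glycine tRNA, went from 1368 CPM in Vector to 4129 in D389N, with 599 in shNS, 920 in shDis3l2 and 1294 in Dis3l2r, a ratio of 1.59 (1.57 to 1.61). Its family stayed within the limit at 0.41. tRNA-Ile-AAT-3-1 stood at 1.28 (1.25 to 1.32) in a family that stood at -0.12. Among lysine tRNAs, which split both ways, tRNA-Lys-TTT-5-1 was higher at 1.70 (1.58 to 1.83) and tRNA-Lys-TTT-3-1 lower at -2.79 (-3.74 to -1.97), from 129 counts to 13. Glutamate tRNAs lay above 0 in all 4 measured rows, with tRNA-Glu-TTC-2-1 higher at 1.09 (1.08 to 1.11), though not by totals (0.84). Proline tRNAs also lay above 0 in 4 of 4 rows and had no call, and alanine tRNAs had no call among 19 rows. Over all RNAs 203 of 379 lay above 0 and 23.2% were called either way.

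Initiator and elongator methionine tRNAs, which share the CAT anticodon but act at the start codon and inside the reading frame respectively, lay on opposite sides of 0. The initiator family iMet-CAT stood at 0.58 (0.58 to 0.58), with 21295 CPM in shNS, 31182 in shDis3l2, 46474 in Vector, 39494 in Dis3l2r and 69769 in D389N. Neither family passed the 2-fold rule, and the initiator row that did, tRNA-iMet-CAT-3-1, had only 44 counts with Vector and 168 with D389N (2.45, 1.97 to 2.97). The elongator family Met-CAT stood at -0.69 (-0.71 to -0.67), from 2310 CPM in Vector to 1434 in D389N, with 2657 in shNS, 2428 in shDis3l2 and 1288 in Dis3l2r. All 5 elongator rows lay below 0 (176 of 379 over all RNAs). Of these, tRNA-Met-CAT-4-1 (-1.95) and tRNA-Met-CAT-3-1 (-1.17) were lower by the rule (40%, beside 12.4% of all RNAs). The D389N and Dis3l2r libraries were both low in elongator methionine tRNA and differed little from each other in CPM.

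**Figure D3:**
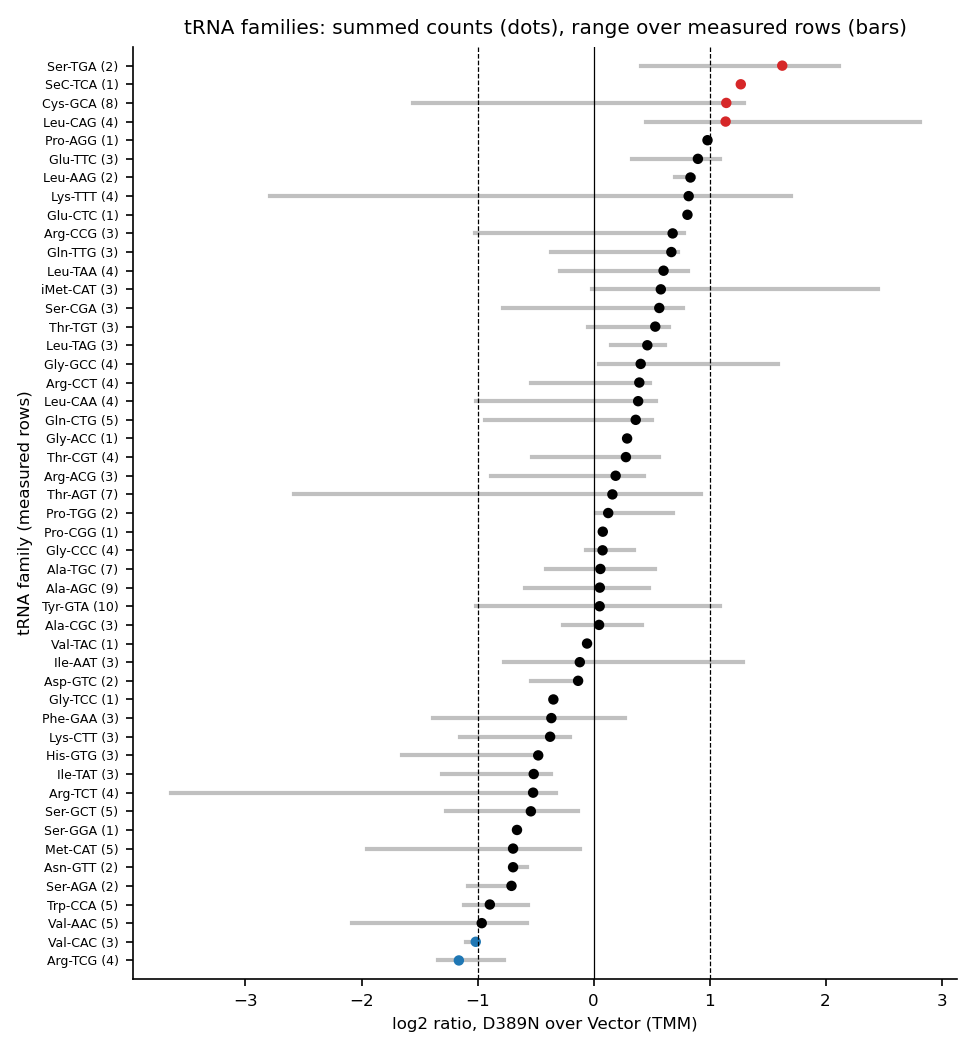
Log2 ratio of D389N over Vector (TMM, x axis) of 49 tRNA anticodon families, with the number of measured rows in brackets; dots are ratios of summed counts (red and blue for families called higher and lower), grey bars the range over measured rows, dashed lines 2-fold. Ser-TGA lies highest at 1.63 and Arg-TCG lowest at -1.16, and the rows of 21 of 41 families with at least 2 measured rows lie on both sides of 0.

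Counted by rows, valine tRNAs were the most uniformly lower group, though their most abundant family hardly differed. Of 9 measured rows 7 were lower (77.8%, beside 12.4% of all RNAs) and 0 were higher (beside 10.8%). All 9 lay below 0, with a median of -1.10. Val-CAC stood at 3156 CPM in shNS, 2288 in shDis3l2, 2134 in Vector, 984 in Dis3l2r and 1060 in D389N. The D389N level therefore lay beside that of Dis3l2r, and both were under the other 3 libraries. Its ratio to Vector was -1.02 (-1.04 to -0.99), and -1.27 by totals. Val-AAC stood at -0.96 (-0.999 to -0.93), short of the limit, and at -1.22 by totals, where it was called. Its row tRNA-Val-AAC-2-1 was the lowest of the 9 measured rows at -2.08 (-2.25 to -1.92): 115, 77.8, 83.7 and 29.2 CPM in shNS, shDis3l2, Vector and Dis3l2r and 19.9 in D389N. The third valine family, Val-TAC, stood at -0.06. It held the most valine counts in D389N, 39431 against 18307 for Val-CAC and 8632 for Val-AAC.

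Arginine TCG tRNAs gave the other lower family. Arg-TCG had 5911 CPM in shNS, 5139 in shDis3l2, 6649 in Vector, 2726 in Dis3l2r and 2986 in D389N. As for Val-CAC, the level in D389N lay next to that in Dis3l2r. The ratio was -1.16 (-1.17 to -1.15), and 3 of its 4 rows were lower. In all, 5 of 18 arginine rows were lower (27.8%, beside 12.4% of all RNAs) and 0 were higher (10.8% of all RNAs); by totals 8 were lower. The Arg-CCG family stood at 0.68 (0.68 to 0.69) even though its row tRNA-Arg-CCG-1-1 was lower at -1.02. Tryptophan tRNA lay below 0 in all 5 measured rows (176 of 379 over all RNAs). Of these, tRNA-Trp-CCA-4-1 (-1.12) and tRNA-Trp-CCA-1-1 (-1.07) were lower (40%, beside 12.4% of all RNAs). The Trp-CCA family stood at -0.89 and, by totals, at -1.15.

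Among tRNA rows with at least 100 counts the largest falls were in rows with few counts. tRNA-Arg-TCT-5-1 went from 287 counts with Vector to 16 with D389N, a ratio of -3.65 (-4.47 to -2.92). Its levels were 3.95 CPM in shNS, 5.04 in shDis3l2, 11.5 in Vector, 9.19 in Dis3l2r and 0.926 in D389N, so D389N was the lowest and Vector the highest of the 5. tRNA-Thr-AGT-7-1, a threonine tRNA, had 1046 counts with Vector and 122 with D389N; levels were 41.0 CPM in shDis3l2 and 42.1 in Vector, against 1.29 in shNS, 7.47 in Dis3l2r and 7.06 in D389N. The parental knockdown and Vector libraries were thus the high ones for this RNA. tRNA-His-GTG-3-1 stood at -1.65 in D389N, while tRNA-His-GTG-2-1, which held 99.9% of the histidine counts, stood at -0.48.

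Spliced tRNAs, the mature products of the tRNA genes that carry an intron, were lower or near 0 throughout. All 14 measured rows lay below 0 with TMM, and so also with totals, which lower every ratio. Their median was -0.54 with TMM, beside 0.08 for all RNAs. Of the 14, 4 were lower (28.6%, beside 12.4% of all RNAs) and 0 higher (beside 10.8%). By totals 6 were lower, beside 18.2% of all RNAs. Spliced tRNA-Arg-TCT-5-1 went from 47.0 CPM in Vector to 9.15 in D389N, with 39.5 in shNS, 25.2 in shDis3l2 and 32.1 in Dis3l2r, a ratio of -2.37 (-2.61 to -2.12). Its unspliced row, given above, was the lowest of the tRNA rows with at least 100 counts. Spliced tyrosine tRNAs made up the other 3 lower rows. For spliced tRNA-Tyr-GTA-1-1 the levels were 187 CPM in shNS, 156 in shDis3l2, 119 in Vector, 72.3 in Dis3l2r and 41.3 in D389N (-1.54, -1.66 to -1.42). Spliced tRNA-Tyr-GTA-3-1 stood at -1.38 and spliced tRNA-Tyr-GTA-4-1 at -1.56, and D389N was the lowest of the 5 libraries in each. Spliced leucine CAA tRNAs, with ratios from -0.56 to -0.15, and spliced isoleucine TAT tRNAs, at -0.10 and -0.07, lay nearer to 0.

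Unspliced rows of the same 4 families, which include precursors that still hold the intron, had a median of -0.39 over 21 measured rows. One was higher, tRNA-Tyr-GTA-5-1 at 1.09 with 78 and 116 counts, and 4 were lower. These are 4.76% and 19.0% of the rows, beside 10.8% and 12.4% of all RNAs. By totals 0 were higher and 7 lower, beside 6.86% and 18.2% of all RNAs. Their sums stood at -0.52 for Arg-TCT, -0.52 for Ile-TAT, 0.05 for Tyr-GTA and 0.38 for Leu-CAA. For tyrosine the unspliced sum therefore lay near 0 (329 CPM in Vector, 342 in D389N) while 3 spliced rows were lower. Ile-TAT had 755 CPM in shNS, 1628 in shDis3l2, 1517 in Vector, 715 in Dis3l2r and 1065 in D389N. In CPM D389N lay between the knockdown lines and the lines with active Dis3l2, but by share of counts it lay near the latter. tRNA-Ile-TAT-1-1 held 0.0491% in D389N, 0.0401% in shNS, 0.0381% in Dis3l2r and 0.0881% in Vector. tRNA-Ile-TAT-2-3 held 0.0374%, 0.0401%, 0.0400% and 0.0577% in the same order.

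**Figure D4:**
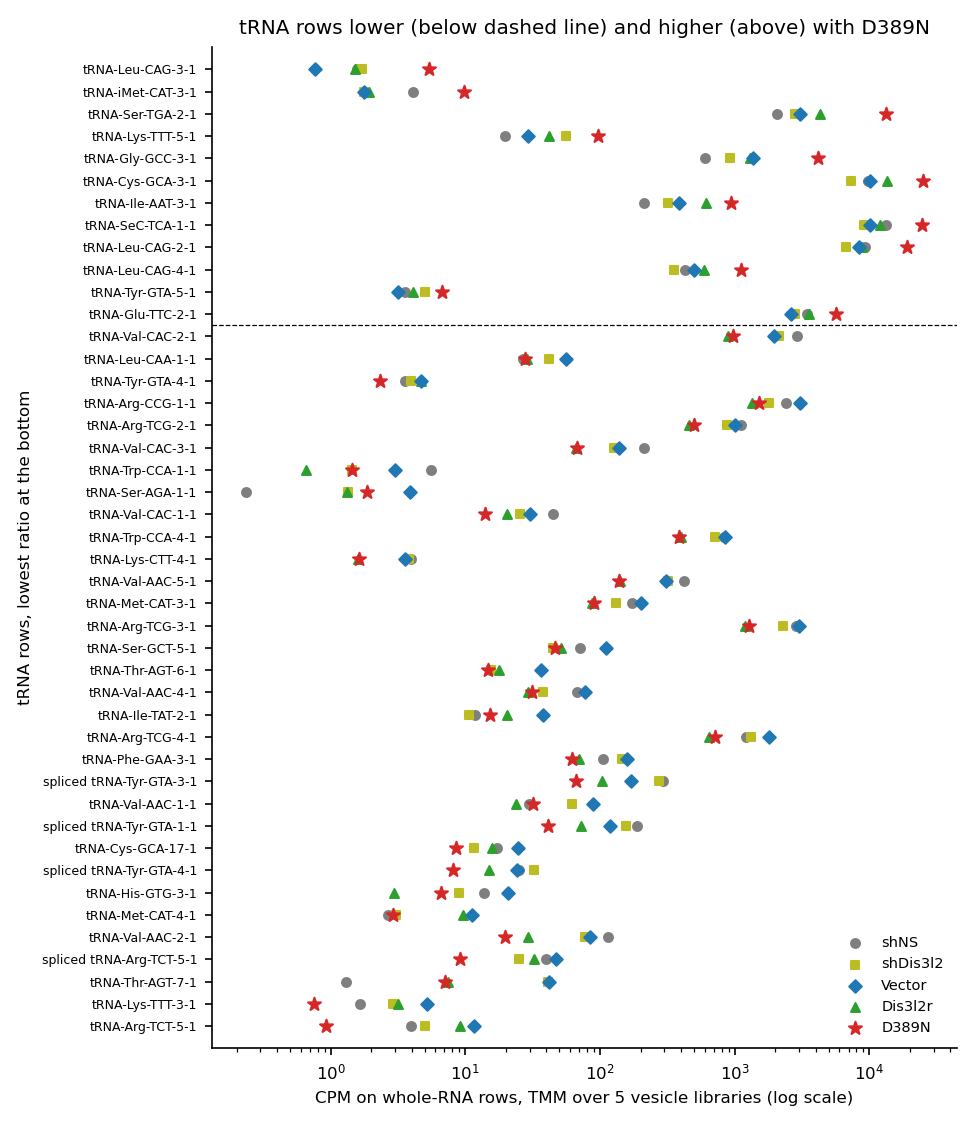
Level in CPM (log scale, x axis) of every tRNA and spliced tRNA row called in the pair (y axis, by ratio), 1 marker per EV library. Above the dashed line the D389N star lies to the right of the other 4 markers in 12 of 12 rows; below it the Vector diamond lies to the right of the other 4 in 19 of 28 unspliced rows.

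Which library of the pair stood apart differed between rises and falls. All 12 higher tRNA rows had D389N above the other 4 EV libraries, and in 4 of them Vector was also below the other 4. Among the 28 lower tRNA rows Vector was above the other 4 in 19 and D389N below them in 10. For transcripts the pattern was the reverse: of 28 higher rows Vector was below the other 4 in 20 and D389N above them in 11, and of 15 lower rows D389N was below in 12 and Vector above in 7. Over all 379 measured RNAs D389N lay outside the range of the other 4 in 160 (42.2%) and Vector in 186 (49.1%). A place outside the range was thus common for both. By direction, D389N was above in 105 of the 379 and below in 55, and Vector above in 96 and below in 90. Such places were not counted for all measured rows of a class. A call needs D389N and Vector to differ, so the places of called rows partly follow from the calls. The 5 libraries are different genotypes, and these places describe them and test nothing.

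The 4.5S RNA stood at 44302 CPM in shNS, 66150 in shDis3l2, 63366 in Vector, 44954 in Dis3l2r and 100707 in D389N. shNS and Dis3l2r, the lines with native or restored Dis3l2, were lowest, both knockdown lines without a Dis3l2 transgene lay between, and D389N was highest. The ratio of D389N to Vector was 0.66 (0.66 to 0.67), and 0.41 by totals, below the 2-fold limit either way.

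SINE RNAs lay above 0 in 5 of 6 measured rows (203 of 379 over all RNAs), with a median of 0.50 (0.24 by totals). By the rule 1 was higher (16.7%, beside 10.8% of all RNAs) and 0 were lower (beside 12.4%). The higher row was SINE_B4, with 163 counts in Vector and 260 in D389N: 4.23 CPM in shNS, 5.58 in shDis3l2, 6.56 in Vector, 9.52 in Dis3l2r and 15.1 in D389N, a ratio of 1.19 (0.90 to 1.48). By totals it stood at 0.94, and no SINE row was called there. SINE_B1_Mus2, the B1 subfamily with the most counts, had 2 rows at 0.39 (0.35 to 0.43) and 0.60 (0.58 to 0.62). SINE_B1 stood at 0.66 and SINE_B2_Mm2 at 0.31. SINE_B2 alone lay below 0, at -0.30 (-0.37 to -0.24), with 152 CPM in shNS, 244 in shDis3l2, 205 in Vector, 156 in Dis3l2r and 166 in D389N. In each of the 7 libraries 8 of the 15 SINE rows repeat the rounded counts of some transcript row, and such RNAs appear in both classes. They include both SINE_B1_Mus2 rows and SINE_B2_Mm2, so of the measured rows only SINE_B1, SINE_B2 and SINE_B4 are separate from the transcripts.

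Transcript rows carry no RNA type. Of 187 measured, 28 were higher (15.0%, beside 10.8% of all RNAs) and 15 lower (8.02%, beside 12.4%), and their median was 0.26. Scaling by totals turned the balance to 18 higher and 26 lower of the 187, with a median of 0.01. By totals 6.86% of all RNAs were higher and 18.2% lower. The transcripts with the most counts were ENSMUST00000083767 at 0.64, ENSMUST00000083211 at 0.41 and ENSMUST00000083988 at 0.93, none past the limit. ENSMUST00000083988 had 49437 CPM in shNS, 33955 in shDis3l2, 21106 in Vector, 73721 in Dis3l2r and 40269 in D389N, so Vector was the lowest of the 5 and D389N lay among the others. The largest rises among measured transcripts were ENSMUST00000082857 at 2.60 (2.24 to 2.98) and ENSMUST00000083060 at 2.43 (1.74 to 3.18). For ENSMUST00000082857 the levels were 11.8, 7.30, 3.06 and 16.8 CPM in shNS, shDis3l2, Vector and Dis3l2r and 18.7 in D389N, again with Vector lowest. Among measured transcripts the largest falls were ENSMUST00000083886, with 502 counts in Vector and 3 in D389N (-6.87, -9.15 to -5.31), and ENSMUST00000093721 at -2.40 (-2.93 to -1.91). ENSMUST00000083886 had 13.0 CPM in shNS, 3.11 in shDis3l2, 20.2 in Vector and 18.8 in Dis3l2r against 0.174 in D389N, which was the only library under 1 CPM.

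Exon, intron and UTR pieces of other transcripts were compared as separate sets, each with its own TMM. Of 497 measured exon pieces 63 were higher (12.7%) and 123 lower (24.7%), or 37.4% either way, at a median of -0.36. Of 9430 intron pieces 1316 were higher (14%) and 2027 lower (21.5%), or 35.5% either way, at a median of -0.18. Of 1820 UTR pieces of transcripts without a whole-RNA row, 379 were higher (20.8%) and 322 lower (17.7%), or 38.5% either way, at a median of 0.01. For exon and intron pieces the balance turned with the scaling: by the totals of each set there were 96 higher and 74 lower exon pieces and 1882 higher and 1408 lower intron pieces. UTR pieces were more often higher under both scalings, with 520 and 206 by totals. With the factors of the whole-RNA rows the medians were 0.50, 0.52 and 0.90. Set against whole RNAs, all 3 kinds of piece therefore had medians above 0, though most pieces were not called higher. The higher calls were 154 of 497 exon, 3016 of 9430 intron and 851 of 1820 UTR pieces. Within their own set exon and intron pieces were more often lower than higher with TMM. Even measured pieces, each with at least 100 counts, were thinly covered, with medians over both libraries of 163 for exon, 199 for intron and 166 for UTR pieces. The measured pieces were 497 of 210777 exon, 9430 of 232768 intron and 1820 of 129766 UTR pieces.

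**Figure D5:**
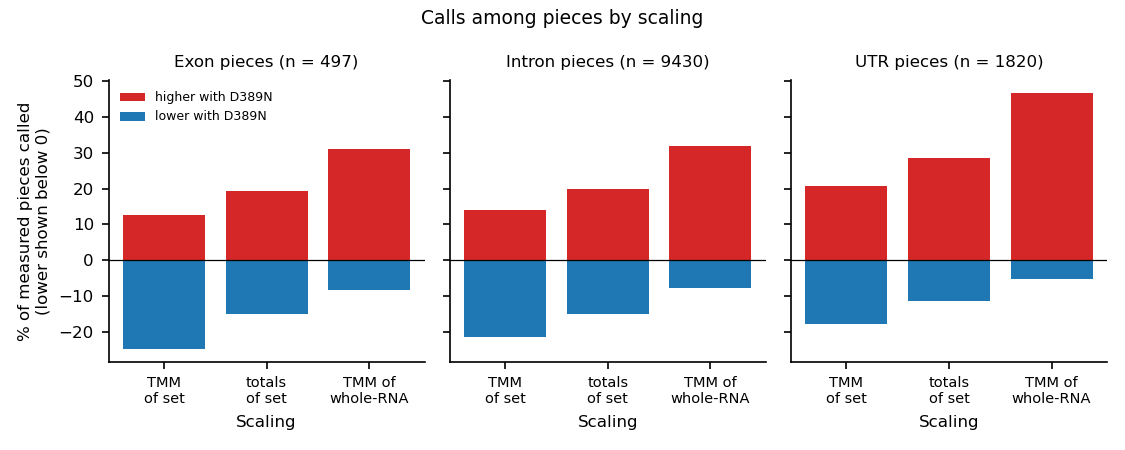
Percent of measured exon, intron and UTR pieces called higher (red, above 0) and lower (blue, drawn below 0) with D389N, under TMM of the set, totals of the set and TMM of the whole-RNA rows (x axis). The red share grows from left to right in each set, from 12.7% with TMM of the set for exon pieces.

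Among pieces with many counts, either library of the pair could be the one that stood apart. An intron piece of ENSMUST00000040826 and an exon piece of ENSMUST00000156618, both singled out after their values were seen, were low in Vector alone. The intron piece had 1325 counts in Vector, against 38802 in shNS, 34419 in shDis3l2, 18941 in Dis3l2r and 42319 in D389N, a ratio of 4.82 (4.74 to 4.90). The exon piece had 92 counts in Vector, against 2020, 2881, 2173 and 4181 in the others, a ratio of 5.17 (4.87 to 5.48). An exon piece of ENSMUST00000007980, also picked after its values were seen, was instead high in D389N alone, with 402 counts against 83 in shNS, 129 in shDis3l2, 141 in Vector and 123 in Dis3l2r (1.17, 0.89 to 1.46). Over the higher intron pieces Vector lay outside the other 4 libraries in 61.9% and D389N in 50.8%, beside 44.9% and 42.4% of all measured intron pieces. Over the higher exon pieces it was D389N in 90.5% and Vector in 39.7%, beside 56.7% and 33.2% of all measured exon pieces. Of the measured intron pieces, 5 carry the counts of a whole-RNA row (within 5% in each EV library) and hold 18.7% of intron-piece counts.

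The active transgene was compared with the same Vector library, so both comparisons share it and their values are set side by side only. Each ratio uses TMM over its own pair of libraries, so the ratios of the 2 comparisons are not on a common scale. Families that were higher with D389N had smaller ratios with Dis3l2r: Ser-TGA at 1.63 with D389N and 0.30 with Dis3l2r, SeC-TCA at 1.27 and 0.38, Cys-GCA at 1.14 and 0.44, and Leu-CAG at 1.14 and 0.17. Their CPM, given above on a common scale, was also lower in Dis3l2r than in D389N. These families were chosen for a high ratio with D389N, and smaller ratios with Dis3l2r were not particular to them. Most other measured families had them too, such as Gln-CTG at 0.36 with D389N and -0.37 with Dis3l2r. The exceptions were Asp-GTC, Gly-TCC, Trp-CCA and Val-CAC. The 4.5S RNA stood at 0.66 and -0.37. Families that were lower had similar ratios, each on its own scale: Arg-TCG at -1.16 with D389N and -1.17 with Dis3l2r, and Val-CAC at -1.02 and -0.997. In CPM D389N was slightly above Dis3l2r, at 2986 against 2726 for Arg-TCG and 1060 against 984 for Val-CAC. By share of whole-RNA counts this order was reversed in both families. For example, tRNA-Arg-TCG-3-1 held 0.105% in D389N and 0.134% in Dis3l2r. Spliced tRNA-Arg-TCT-5-1 stood at -2.37 and -0.43, and tRNA-Arg-TCT-5-1 at -3.65 and -0.21. Among all 10 pairs of EV libraries the D389N and Vector pair ranked in place 7 by the share of RNAs called (23.2%). The share was 32.1% for Dis3l2r against Vector, 30.3% for Vector against shNS and 23.9% for Vector against shDis3l2. D389N gave 29.5% against shNS, 27.5% against shDis3l2 and 24.5% against Dis3l2r. The pairs without Vector or D389N had the fewest calls: 16.5% for Dis3l2r against shDis3l2, 14.5% for Dis3l2r against shNS and 11.2% for shDis3l2 against shNS.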

How the data were processed

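The labels' protocols describe template-switching libraries of EV and whole-cell RNA. The authors deposited 1 unscaled table, and its values are estimated counts per row, which need not be whole. Tools listed in the submitters' processing notes are Salmon, Novoalign, cutadapt and UMI-tools, and builds GRCm38 and mm10. Their versions, order and any removal of duplicate reads are not stated in the sources used here, so PCR copies may be among the counts. The table has 580839 rows: 3894 whole RNAs, 210777 exon, 232768 intron and 133400 UTR pieces, of which 129766 belong to transcripts without a whole-RNA row.

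Counts were rounded and 2 libraries compared by TMM (edgeR 4.0.16, R 4.3.3) with exact conditional (Clopper-Pearson) 95% intervals (Python 3.11.15, scipy 1.17.1, numpy 2.4.6, pandas 2.3.3, matplotlib 3.10.9). The calculation was tested on simulated data. List medians in the closing section use rows with at least 20 counts. Classes and families follow the row names. Lists by gene symbol (mitochondrial, 7SL, 7SK, Y, vault, RNase P and MRP, spliceosomal, snoRNA, miRNA and long noncoding RNAs, and macrophage markers) could not be matched and have no result. Named RNAs are the 10 largest named rises and falls, every family called, 4.5S RNA, the 3 rows with most counts per class, the 3 nearest the limit on each side, members of lists of up to 6 rows, and at most 2 transcript or piece IDs each way; other rows named belong to families or shares described. The pair, members and lists were chosen with earlier results of these data known. Alternatives were other scalings (DESeq2 1.42.0 size factors, TMM over 5 libraries, other totals), count minimums and fold limits; totals without tRNA-Gly-TCC-1-1 were added after seeing the data. Whole-cell libraries were not compared.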

Additional observations from a re-analysis of the deposited data

How the results depend on the processing

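With 1 library a side, replicate spread is unknown and intervals give counting error only; for RNAs with at least 100 and under 1000 counts the median interval was 0.795 wide (log2). No paired analysis was possible because each group has 1 library, and leaving out a library was not possible for the same reason. Scalings shift all ratios by one constant, from -0.42 to 0.006 relative to TMM; every change of call between scalings follows from that shift.

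Whole RNAs called higher numbered 41 with TMM, 26 with totals or with totals without ENSMUST00000083988, 27 with totals without 4.5S RNA, 21 with totals of all rows, 19 with totals without tRNA-Gly-TCC-1-1 and 16 with exon-piece totals. RNAs called lower went from 47 to 78 with totals of all rows, 82 without tRNA-Gly-TCC-1-1 and 93 with exon-piece totals. A minimum of 20 counts gave 101 higher and 80 lower, and a minimum of 500 gave 17 higher. A 1.5-fold limit gave 95 higher and 92 lower, and a 3-fold limit 12 and 11. Families went from 4 higher and 2 lower to 2 and 4 with totals, also without ENSMUST00000083988 or without 4.5S RNA; to 1 and 7 with totals of all rows; to 1 and 8 with exon-piece totals or without tRNA-Gly-TCC-1-1; to 12 and 8 at 1.5-fold; and to 1 and 0 at 3-fold.

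The following medians are over rows with at least 20 counts. For tRNA rows the median was -0.15 with TMM, -0.46 with totals of all rows, -0.57 with exon-piece totals and -0.50 without tRNA-Gly-TCC-1-1. Spliced tRNA rows had -0.54 with TMM, -0.80 with totals, -0.86 with totals of all rows, -0.97 with exon-piece totals, -0.78 without ENSMUST00000083988, -0.77 without 4.5S RNA and -0.90 without tRNA-Gly-TCC-1-1. In the same order, unspliced rows of intron families had -0.40, -0.65, -0.71, -0.82, -0.63, -0.62 and -0.75. SINE rows had 0.93 with TMM, 0.62 with totals of all rows, 0.51 with exon-piece totals, 0.57 without tRNA-Gly-TCC-1-1, 0.50 at 100 counts and 1.19 without the rows that repeat a transcript. The transcript median of 0.33 changed sign to -0.088 with exon-piece totals, -0.020 without tRNA-Gly-TCC-1-1 and -0.0029 at a minimum of 1 count. The ratio of 4.5S RNA, 0.66, became 0.41 with totals, 0.62 with DESeq2 size factors, 0.67 with TMM over the 5 EV libraries, 0.35 with totals of all rows, 0.24 with exon-piece totals, 0.43 without ENSMUST00000083988, 0.44 without its own counts and 0.31 without tRNA-Gly-TCC-1-1.

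When pieces are added to the denominator, named tRNAs held 43.8% with D389N and 46.9% with Vector, against 74.8% and 76.9% of whole-RNA counts. Higher and lower exon pieces numbered 63 and 123 with TMM of the set, 96 and 74 with totals, 154 and 41 with whole-RNA factors, and 2346 and 1821 at 20 counts. Intron pieces numbered 1316 and 2027, then 3016 and 740 with whole-RNA factors and 11049 and 9196 at 20 counts. UTR pieces numbered 379 and 322, then 851 and 95 with whole-RNA factors and 3270 and 2877 at 20 counts; 206 were lower with totals. Of 133 alternative values, 53 stayed within a set range or within 1.5 times the count, 77 were set down as moved and 3 changed sign. For a list median the range ran between the medians of its rows' lower and upper interval limits, which is not an error of the median. The shares with pieces in the denominator were set down as moved without a comparison.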

Other observations

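SINE rows below the count minimum of the pair held more counts with D389N in some subfamilies; they were singled out after their values were seen. SINE_B3 (its second row) had 6 counts in Vector and 75 in D389N, against 20 in shNS, 4 in shDis3l2 and 10 in Dis3l2r. SINE_ID had 3 and 51 counts, against 0 in shNS, 0 in shDis3l2 and 2 in Dis3l2r. RSINE1 had 7 and 20 counts, and its Vector count was the lowest of the 5 EV libraries, where shNS had 40, shDis3l2 28 and Dis3l2r 31. SINE_B1_Mur4 went the other way, with 54 counts in Vector and 24 in D389N.

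Suppressor-type tRNA rows, named for anticodons that pair with stop codons, were nearly empty. The Sup-TTA row had 11 counts in Vector and 56 in D389N, with 34 in shNS, 60 in shDis3l2 and 17 in Dis3l2r. The Sup-TCA row had 3 and 1. Transcript rows above 0 numbered 504 in the D389N library, the fewest of the 5 EV libraries, against 554 in Vector, 579 in shNS, 553 in shDis3l2 and 568 in Dis3l2r.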
